A study of Homo sapiens with 6 samples.

Results

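Among the genes measured in Hep G2 cells, 64 protein-coding genes were all but silent with the empty vector. By the mean of 3 libraries they were present in cells that stably overexpressed EFTUD2. Hep G2 is a human liver tumor line, and EFTUD2 is a GTPase of the U5 part of the spliceosome, the machine that removes introns. A gene was chosen when it was listed at 0.1 FPKM or less in each of 3 control libraries and at a mean of at least 1 FPKM over 3 EFTUD2 libraries. FPKM counts fragments relative to the length of the transcript and to the size of the library, so levels of different genes are on one scale. Of 23524 rows in the table, 18762 carry an Entrez gene number, and 76 of these met both thresholds. The 64 genes are those that remained after 12 were left out by name: ALPP, CD44, COL4A1, COL4A2, COL5A1, COL12A1, COL15A1, IFI16, IL6, MAGEB2, NNMT and PRSS21. Because the genes were selected on the measured values of both groups, the difference between the groups is given as a description, without a test.

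Both groups were Hep G2 cells. According to the study's methods, stable cells were made by delivery of a vector and selection in puromycin. The control cells held the empty vector and the other cells held an EFTUD2 overexpression vector, with 3 libraries of poly-A selected RNA in each group, numbered 1 to 3. The sources do not say whether these libraries came from separate cultures, or whether the cells were a pool or a clone, so p-values measure the spread between these libraries, which may be technical. A tumor line in culture has no stroma, vessels or immune cells of its own.

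Silent genes in a differentiated cell line are usually genes of other lineages or of earlier development, held off by the lack of their activators, by packed chromatin or by DNA methylation. An active gene of low level gives a few transcripts in a cell, or more transcripts in a fraction of cells, and RNA from bulk cells does not separate these. The classes below follow the known roles of the proteins. Secreted and matrix proteins leave the cell or, like the collagen prolyl hydroxylase P3H2, act on matrix proteins. Ligands, receptors and other surface proteins connect the cell to its neighbors. The other classes are intracellular signaling proteins, cytoskeletal and adhesion proteins, nuclear proteins, and proteins of transport, metabolism and organelles.

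Values below run over replicates 1 to 3 of the control cells and then over replicates 1 to 3 of the EFTUD2 cells. EFTUD2 itself was listed at 41.14, 54.35 and 46.34 FPKM in control cells, against 106.62, 102.9 and 109.48 FPKM in EFTUD2 replicates 1 to 3. The groups did not overlap, with means of 47.3 ± 6.65 and 106.3 ± 3.30 FPKM (SD, n = 3 each), and the table does not separate vector transcripts from those of the cells' own gene. The FPKM of all rows summed to between 404342 and 434542 in a library, and the read depth is unknown. EFTUD2 replicate 3 stood apart from the other libraries. Over all genes tested, the SD of the log2 difference was 0.23 between EFTUD2 replicates 1 and 2, 0.51 between replicates 1 and 3, 0.60 between replicates 2 and 3, and 0.21 to 0.36 between controls.

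The 64 genes followed one order. Every one of them was highest in EFTUD2 replicate 2, next in replicate 1 and lowest of the 3 in replicate 3, although EFTUD2 mRNA was about equal in these libraries. Genes outside the 64 had this order too, among them EHMT2 and NCAPH2. Its share among all genes tested was not counted, so the order alone is not read as particular to the 64. The median of the 64 genes stood at 0.02 FPKM in each control, at 1.46 FPKM in replicate 1, at 3.41 FPKM in replicate 2 and at 0.14 FPKM in replicate 3. Added together, the 64 genes came to 1.64, 1.40 and 1.81 FPKM in the controls and to 118.5, 306.2 and 12.9 FPKM in EFTUD2 replicates 1 to 3. At least 1 FPKM was reached by 53 of the genes in replicate 1, by all 64 in replicate 2, and in replicate 3 by 2, BASP1 and WFDC1.

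**Figure D1:**
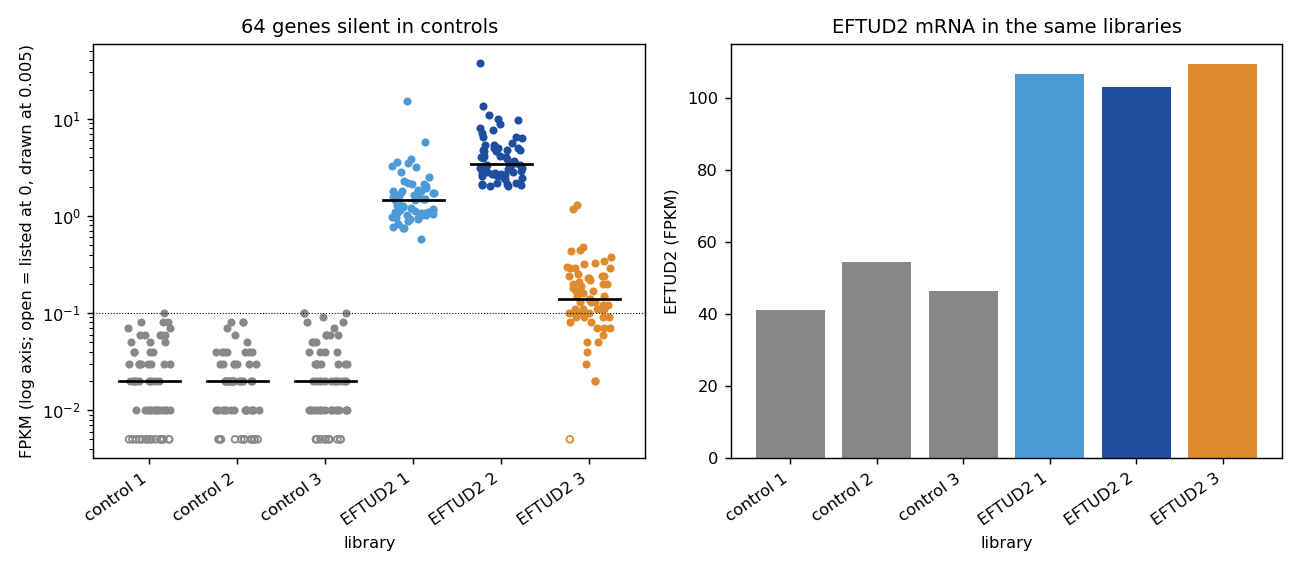
Left, FPKM of each of the 64 genes (points, log axis) in each library, with the median as a black bar, the control limit of 0.1 FPKM dotted, and open points for genes listed at 0. Right, EFTUD2 FPKM in the same libraries: it lies between 102.9 and 109.48 in the 3 EFTUD2 libraries, while the medians of the 64 genes there are 1.46, 3.41 and 0.14 FPKM.

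EFTUD2 replicate 3 was low: 43 of the 64 genes were above the control limit of 0.1 FPKM there, against all 64 in replicates 1 and 2. In 59 of the 64 each EFTUD2 library, also replicate 3, was above every control, beside 7.93% of all genes tested. The choice of the genes set this count, so nothing is read from it, nor from the same statement for single genes of the 64 below. The 5 others were TRIP6, CAVIN3, RAB27B, HENMT1 and PARVB, whose replicate 3 value fell within or below the range of the controls. Of the controls' values, 16, 12 and 10 were listed at 0 in replicates 1 to 3, and TRIP6, RPL39L, PCDH7 and H2AC25 were listed at 0 in all 3 controls.

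Relative to EFTUD2 replicate 2, the level in replicate 1 had a median ratio of 0.393 over the 64 genes, with quartiles of 0.361 and 0.441. The ratio of replicate 3 to replicate 2 had a median of 0.0373, with quartiles of 0.0296 and 0.0565. Among 11071 genes whose control mean and replicate 2 level were both 1 FPKM or more, the same ratios had medians of 0.983 and 0.833. Among the 12 genes left out by name they were 0.428 and 0.0445. The ratios are descriptions, since the values of these libraries also chose the 64 genes.

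The ratio of replicate 3 to replicate 2 was highest for SRGN, at 0.143, GAL, at 0.119, INSIG1, at 0.114, WFDC1, at 0.0889, and ZP3, at 0.0849. SRGN, the proteoglycan core of secretory granules, was listed at 0.06, 0.01 and 0.01 FPKM in control cells, against 1, 2.03 and 0.29 FPKM in EFTUD2 replicates 1 to 3. INSIG1, which holds the sterol sensor of cholesterol synthesis in the endoplasmic reticulum, stood at 0.03, 0.01 and 0.03 FPKM in control cells, against 0.76, 2.10 and 0.24 FPKM with EFTUD2. ZP3, a glycoprotein of the egg coat, stood at 0.05, 0.02 and 0.10 FPKM, against 1.08, 2.12 and 0.18 FPKM. In these genes each EFTUD2 library lay above each control, also in replicate 3.

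The ratio was lowest for TRIP6, at 0, CAVIN3, at 0.0064, HENMT1, at 0.0076, PARVB, at 0.0123, and GAS1, at 0.0149. CAVIN3, part of the coat of caveolae, stood at 0.03, 0.02 and 0 FPKM in control cells, against 1.26, 3.12 and 0.02 FPKM with EFTUD2. HENMT1, a methyltransferase that modifies the ends of small RNAs of the germ line, stood at 0, 0.03 and 0 FPKM, against 1.01, 2.63 and 0.02 FPKM. PARVB, a parvin that links integrin adhesions to actin, stood at 0.05, 0.06 and 0.08 FPKM, against 0.95, 2.43 and 0.03 FPKM. For CAVIN3, HENMT1 and PARVB the groups overlapped through replicate 3, while replicates 1 and 2 were above all controls. GAS1, a surface protein that takes part in hedgehog reception, was listed at 0, 0 and 0.01 FPKM and at 0.98, 2.68 and 0.04 FPKM, without overlap.

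**Figure D2:**
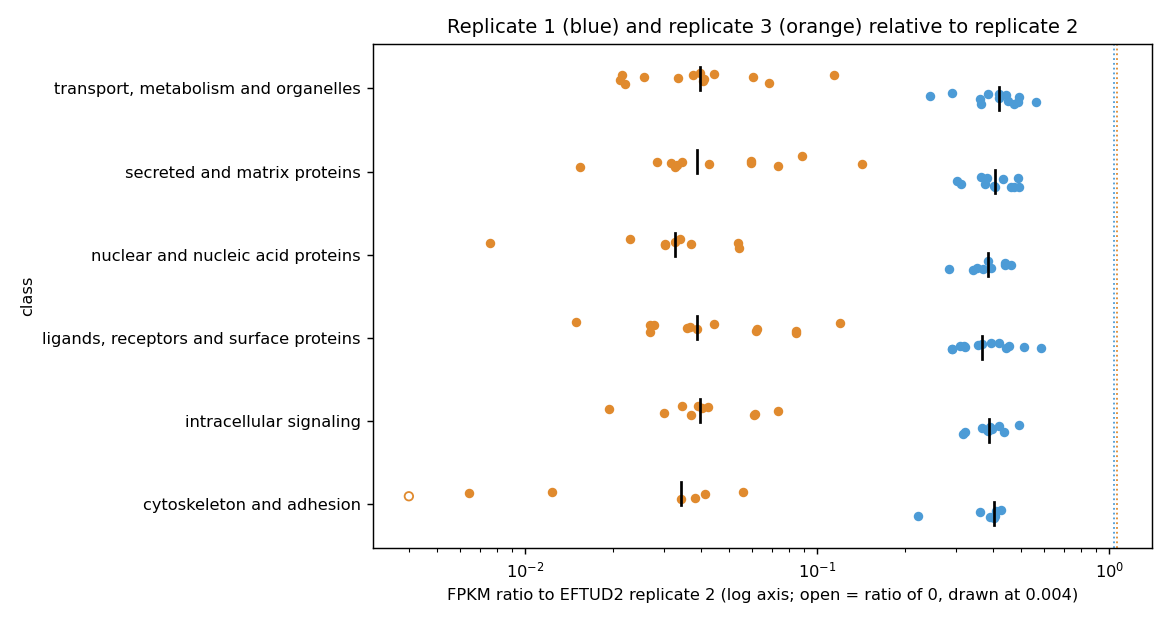
Ratio of FPKM in EFTUD2 replicate 1 (blue) and replicate 3 (orange) to replicate 2 for each gene (points, log axis), by class, with class medians as black bars and the same ratios of EFTUD2 itself as dotted lines. The class medians lie between 0.366 and 0.421 for replicate 1 and between 0.0325 and 0.0398 for replicate 3, against 1.04 and 1.06 for EFTUD2.

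Promoter sequence was not used to choose the genes. Of the 64, 47 matched a promoter in the RefSeq table for GRCh38.p14, a window of 300 bases with 250 before and 50 after the start of transcription. Those without an entry included BMP2, CAVIN3, CCN3, CCN5, EFEMP1, FAM83A, GAL, HOXC10, KIRREL1, MRC2, NPTX1, OLR1, PSCA, RPL39L, SRGN and WFDC1. A promoter was called CpG-rich at a GC content of at least 50% and an observed to expected CpG ratio of at least 0.6. CpG is the dinucleotide that DNA methylation marks, and CpG-rich promoters are common at genes that many cell types use. At the first listed start, 32 of the 47 promoters (68.1%) were CpG-rich. The share was 36.7% of 3474 other genes at 0.1 FPKM or less in every control, 81.9% of 9253 genes whose control mean was 1 FPKM or more, and 67.0% of all 14623 promoters. The median promoter held 22 CpG among the 47, 9 among the other control-silent genes and 27 among the genes whose control mean was 1 FPKM or more. The range among the 47 was from 0 to 48 CpG.

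**Figure D3:**
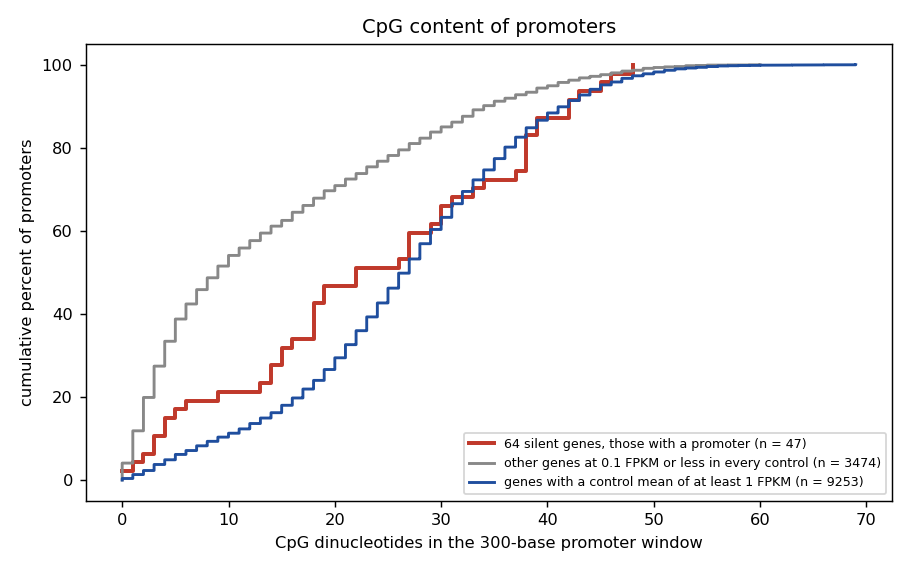
Cumulative percent of promoters (vertical axis) against the number of CpG dinucleotides in the 300-base window (horizontal axis), for the 47 of the 64 genes with a promoter (red), other control-silent genes (gray) and genes whose control mean was 1 FPKM or more (blue). The red line runs between the other lines up to about its median of 22 CpG, against medians of 9 and 27.

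To show this range, the 100 bases before the first listed start are printed for BASP1, the gene with the highest level, for HTRA1, among the richest in CpG, for TRIP6, which was listed at 0 in replicate 3, and for MYPN and SLC1A3, among the poorest, with each CG in capitals. They lie at chr5:17216723-17216822 (plus strand), chr10:122461453-122461552 (plus strand), chr7:100867287-100867386 (plus strand), chr10:68109388-68109487 (plus strand) and chr5:36596488-36596587 (plus strand) of GRCh38.p14, from RefSeq.
BASP1: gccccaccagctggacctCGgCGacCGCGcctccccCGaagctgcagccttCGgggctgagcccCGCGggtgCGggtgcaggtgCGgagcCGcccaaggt
HTRA1: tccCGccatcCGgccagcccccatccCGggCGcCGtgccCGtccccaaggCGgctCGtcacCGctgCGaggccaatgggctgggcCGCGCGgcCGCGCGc
TRIP6: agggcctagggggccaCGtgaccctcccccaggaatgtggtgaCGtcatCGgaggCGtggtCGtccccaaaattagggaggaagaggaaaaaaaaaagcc
MYPN: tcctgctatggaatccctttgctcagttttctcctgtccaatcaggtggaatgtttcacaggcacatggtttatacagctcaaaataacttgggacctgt
SLC1A3: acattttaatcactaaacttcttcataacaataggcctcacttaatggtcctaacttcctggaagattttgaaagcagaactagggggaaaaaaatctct
The stretches hold 11, 16, 5, 0 and 0 CG, and the whole windows 27, 45, 18, 2 and 1. BASP1, HTRA1 and TRIP6 counted as CpG-rich, and MYPN and SLC1A3 did not. All 5 genes were at 0.08 FPKM or less in every control, but their choice required 0.1 FPKM or less.

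A few short motifs were counted on both strands of the window. TATAAA, the TATA box, was found in 21.3% of the 47 promoters, in 15.3% of the other control-silent genes and in 8.51% of all promoters. GGGCGG, read by SP and KLF factors, was found in 66.0%, 39.98% and 61.3%. CCAAT was found in 40.4%, 34.9% and 36.1%, and CATTCC, read by TEAD factors, in 19.1%, 12.98% and 11.5%. CACGTG, the E-box, was found in 14.9%, 6.28% and 9.08%, TGANTCA, read by AP-1, in 4.26%, 7.74% and 5.50%, and TTCNNNGAA, read by STAT factors, in 6.38%, 7.54% and 6.69%. The shares of the 47 rest on 2 to 31 promoters, the motifs were counted separately although a window may hold several, and a match of letters is a description, not a bound site.

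Secreted and matrix proteins made up 12 of the 64 genes, with sums of 25.4, 64.3 and 3.35 FPKM in EFTUD2 replicates 1 to 3. WFDC1, a secreted protein with a whey acidic protein domain, was listed at 0, 0.02 and 0.03 FPKM in control cells, against 5.79, 13.39 and 1.19 FPKM with EFTUD2. CCN5, a matricellular protein that in the table bears its older name WISP2, stood at 0.04, 0.02 and 0.03 FPKM, against 3.30, 10.99 and 0.38 FPKM. FSTL1, a secreted follistatin-like glycoprotein, stood at 0.10, 0.04 and 0.06 FPKM, against 3.57, 7.73 and 0.33 FPKM. None of the 3 overlapped between the groups, and WFDC1 kept the highest replicate 3 value of the class. OLFM1, a secreted olfactomedin of neural tissue, stood at 0, 0 and 0.02 FPKM, against 2.01, 6.47 and 0.10 FPKM. NPTX1, a secreted pentraxin of synapses, stood at 0.03, 0.02 and 0.04 FPKM, against 1.72, 4.74 and 0.15 FPKM. Both are best known from neurons, and in both the 3 EFTUD2 libraries lay above the controls.

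The other secreted and matrix genes lay between 1 and 1.64 FPKM in EFTUD2 replicate 1, between 2.03 and 3.37 FPKM in replicate 2 and between 0.08 and 0.29 FPKM in replicate 3. They were EFEMP1, a fibulin, FBN2, a fibrillin of microfibrils, CCN3, a second matricellular protein listed as NOV, HTRA1, a secreted serine protease, PXDN, a peroxidase that cross-links basement membrane collagen, P3H2, a prolyl hydroxylase of collagen, and SRGN. FBN2 was listed at 0.06, 0.08 and 0.10 FPKM in control cells, against 1.51, 3.20 and 0.19 FPKM with EFTUD2, just within the control limit. HTRA1 stood at 0.08, 0.05 and 0.07 FPKM in control cells, against 1.28, 3.14 and 0.23 FPKM with EFTUD2, and its listed promoter was among the richest in CpG.

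Ligands, receptors and other surface proteins were 13 genes, with sums of 17.4, 47.6 and 2.40 FPKM in EFTUD2 replicates 1 to 3. MRC2, an endocytic receptor that takes up collagen, was listed at 0.03, 0.03 and 0.02 FPKM in control cells, against 2.2, 7.15 and 0.44 FPKM with EFTUD2. MARVELD1, a membrane protein with a MARVEL domain, stood at 0.02, 0.04 and 0.04 FPKM, against 1.84, 6.36 and 0.17 FPKM. PSCA, a surface antigen anchored by a lipid, stood at 0.08, 0.02 and 0.05 FPKM, against 1.70, 5.31 and 0.45 FPKM. MRC2 and PSCA had the highest replicate 3 values of the class. BMP2, a ligand of the bone morphogenetic family that in liver feeds iron sensing, stood at 0.06, 0.01 and 0.01 FPKM, against 1.5, 4.72 and 0.13 FPKM. GAL, the precursor of the neuropeptide galanin, stood at 0, 0 and 0.06 FPKM, against 1.56, 2.68 and 0.32 FPKM. GAL had the highest ratio of replicate 1 to replicate 2 among the 64 genes, 0.582.

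The remaining surface genes reached 0.75 to 1.53 FPKM in EFTUD2 replicate 1, 2.12 to 3.64 FPKM in replicate 2 and 0.04 to 0.18 FPKM in replicate 3. WLS carries Wnt ligands to the surface and TRABD2A is a membrane metalloprotease that acts on Wnt proteins. OLR1 binds oxidized LDL, KIRREL1 and PCDH7 are adhesion proteins of the immunoglobulin and protocadherin families, and MUC1 is a membrane mucin. GAS1 and ZP3 complete the class, and no gene of it exceeded 0.10 FPKM in a control, which is the limit of the choice itself.

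Intracellular signaling proteins were 10 genes, with sums of 17.9, 46.0 and 2 FPKM in EFTUD2 replicates 1 to 3. GNG11, a G protein gamma subunit, was listed at 0, 0.08 and 0 FPKM in control cells, against 3.86, 10 and 0.30 FPKM with EFTUD2. PDE10A, which breaks down cyclic nucleotides, stood at 0.01, 0.03 and 0.02 FPKM, against 2.13, 5.36 and 0.21 FPKM. DUSP23, a protein phosphatase, stood at 0, 0 and 0.04 FPKM, against 2.27, 4.63 and 0.34 FPKM. In all 3 the groups did not overlap. SRI, the calcium-binding protein sorcin, stood at 0.01, 0.01 and 0.03 FPKM, against 1.82, 4.97 and 0.20 FPKM. PLPP2, which removes phosphate from signaling lipids, stood at 0.06, 0 and 0.06 FPKM, against 1.53, 4.78 and 0.29 FPKM. Replicate 3 of SRI and PLPP2 was several times the highest control.

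MAPK4, an atypical MAP kinase, was listed at 0.02, 0.01 and 0.01 FPKM in control cells, against 1.46, 4.61 and 0.17 FPKM with EFTUD2. FAM83A, a signaling adaptor linked to growth factor receptors, stood at 0.07, 0.03 and 0.02 FPKM, against 1.78, 4.09 and 0.25 FPKM. RAB27B, a small GTPase of vesicle secretion, stood at 0.02, 0.07 and 0.10 FPKM, against 1.08, 2.57 and 0.05 FPKM. MAPK4 and FAM83A did not overlap between the groups, while RAB27B in replicate 3 lay below controls 2 and 3. PDE1A, a phosphodiesterase switched on by calmodulin, stood at 0.01, 0 and 0.01 FPKM, against 0.83, 2.12 and 0.09 FPKM. PRR5L, which binds the mTORC2 kinase complex, reached 2.90 FPKM in replicate 2.

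Cytoskeletal and adhesion proteins were 7 genes, with sums of 23.4, 62.4 and 1.78 FPKM in EFTUD2 replicates 1 to 3. BASP1, a protein bound to the inner face of the membrane in growing nerve endings, was listed at 0.05, 0.04 and 0.05 FPKM in control cells, against 15.27, 37.7 and 1.29 FPKM with EFTUD2. It was the highest of the 64 genes in each EFTUD2 library and made up 12.9%, 12.3% and 10.02% of their sum there. TRIP6, a LIM protein of focal adhesions and the nucleus, was listed at 0 in all 3 controls, at 2.13 and 9.62 FPKM in EFTUD2 replicates 1 and 2, and at 0 in replicate 3. TRIP6 also had the lowest ratio of replicate 1 to replicate 2, 0.221. LIMCH1, an activator of nonmuscle myosin, BEGAIN, a postsynaptic protein, and MYPN, a sarcomere protein, reached 3.96, 2.87 and 2.66 FPKM in replicate 2, and CAVIN3 and PARVB are given above. The promoter windows of MYPN and BASP1 held 2 and 27 CpG. All 64 genes shared the order of the libraries, so nothing is read from this pair.

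Proteins of the nucleus or of nucleic acids were 9 genes, with sums of 14.7, 38.6 and 1.40 FPKM in EFTUD2 replicates 1 to 3. TFAP2A, an AP-2 transcription factor of neural crest and skin, was listed at 0.03, 0.02 and 0.02 FPKM in control cells, against 3.51, 8.93 and 0.48 FPKM with EFTUD2. HTATIP2, first known as a partner of the viral Tat protein, stood at 0.06, 0.03 and 0.02 FPKM, against 2.81, 7.98 and 0.24 FPKM. HOXC10, a homeobox factor of the posterior body, stood at 0.01, 0.02 and 0.02 FPKM, against 1.82, 4.13 and 0.14 FPKM. The 3 genes did not overlap between the groups. TBX1, a T-box factor of the pharynx, reached 2.65 FPKM in replicate 2. TRIM68, a ubiquitin ligase, LDOC1, derived from a retrotransposon, and H2AC25, a histone H2A listed as HIST3H2A, reached 4, 4.05 and 2.04 FPKM. Histone mRNAs of this kind mostly lack a poly-A tail, and the libraries were made from poly-A selected RNA, so the level of H2AC25 is uncertain.

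Proteins of transport, metabolism and organelles were 13 genes, with sums of 19.8, 47.3 and 1.95 FPKM in EFTUD2 replicates 1 to 3. RPL39L, a copy of a ribosomal protein gene used in testis, was listed at 0 in all 3 controls and at 3.22, 6.56 and 0.29 FPKM with EFTUD2. RTL8A, derived from a retrotransposon, stood at 0, 0.04 and 0.08 FPKM, against 2.52, 5.59 and 0.12 FPKM. Both have near-identical copies in the genome, RPL39 and RTL8B with RTL8C, so their counts may be shared among copies. SMIM10, a small membrane protein, stood at 0.02, 0 and 0 FPKM, against 1.93, 5.02 and 0.11 FPKM. EMC10, a subunit of the complex that inserts proteins into the endoplasmic reticulum membrane, stood at 0, 0.04 and 0.03 FPKM, against 1.45, 5.02 and 0.20 FPKM. In all 4 genes replicate 3 lay above every control.

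The other genes of this class lay between 0.58 and 1.80 FPKM in EFTUD2 replicate 1, between 2.09 and 3.81 FPKM in replicate 2 and between 0.06 and 0.24 FPKM in replicate 3. They were STEAP4, a metalloreductase, OSBPL5, which moves lipids between membranes, KCNK1, a potassium channel, SLC1A3, a glutamate transporter of glia, BTBD6, an adaptor of ubiquitin ligases, HDHD5, INSIG1, IFT27 and ATL3. IFT27, a small GTPase of transport in cilia, stood at 0.07, 0.08 and 0.06 FPKM in control cells, against 0.58, 2.39 and 0.09 FPKM with EFTUD2. ATL3, a GTPase that joins tubules of the endoplasmic reticulum, stood at 0.01, 0.01 and 0.01 FPKM, against 0.88, 2.09 and 0.07 FPKM. IFT27 was the gene with the lowest value in replicate 1.

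**Figure D4:**
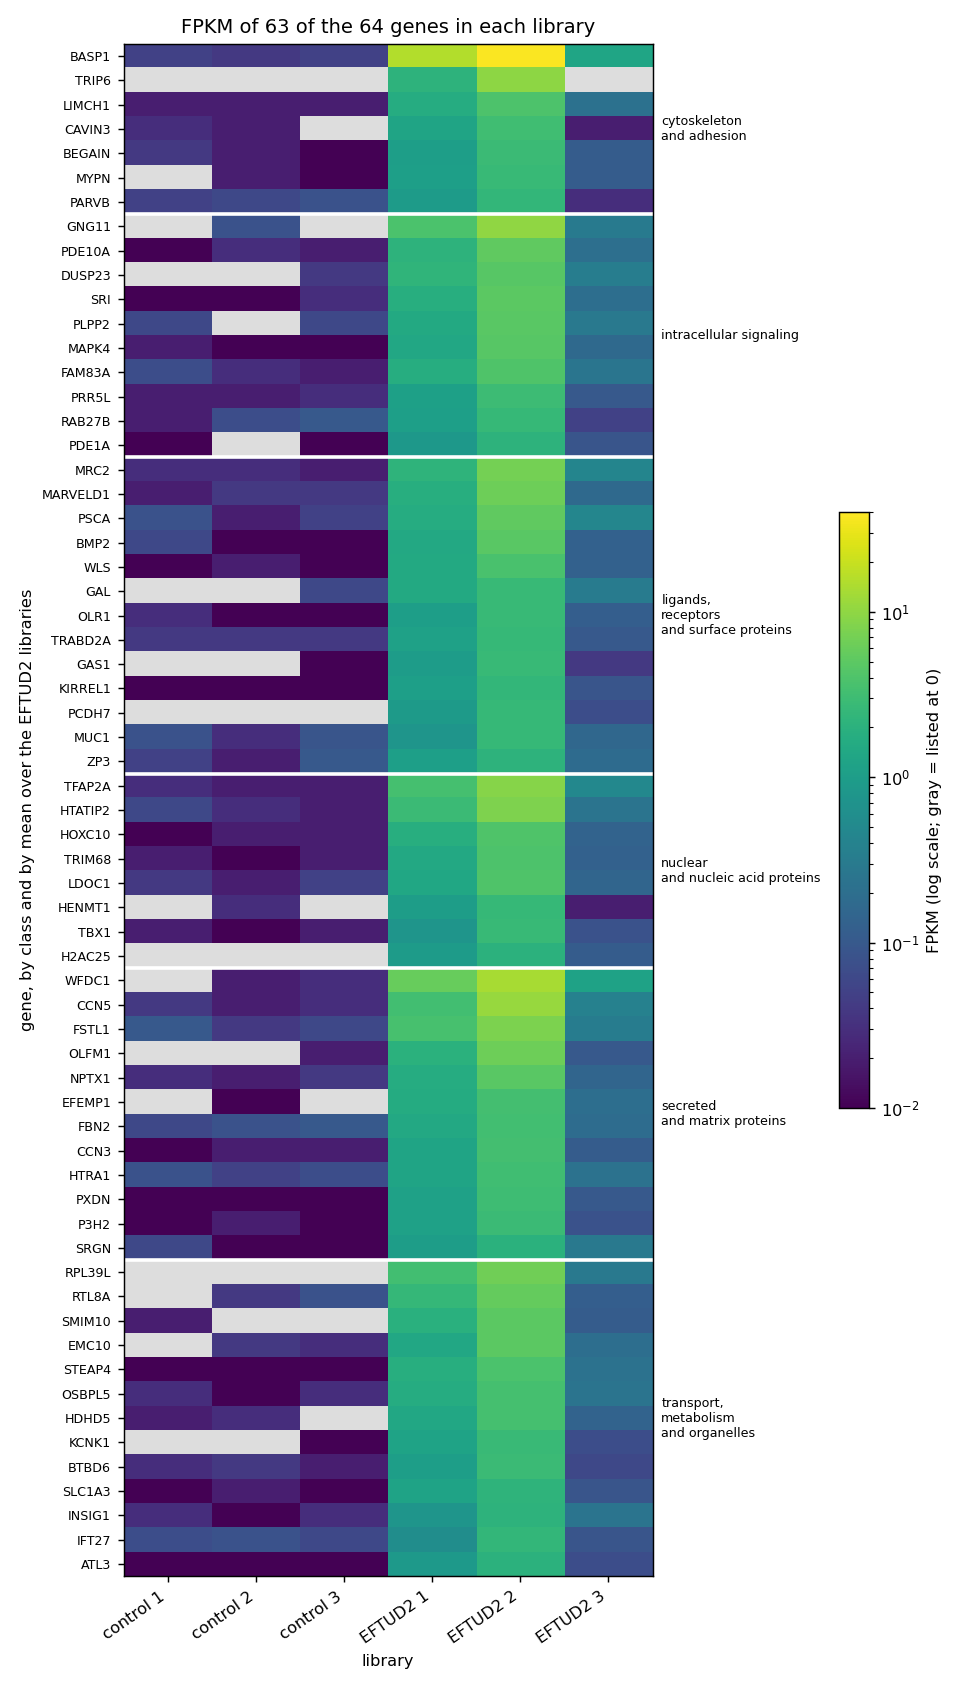
FPKM of 63 of the 64 genes (rows, grouped by class and ordered by mean within a class) in the 6 libraries (columns), on a log color scale with gray for genes listed at 0. In every row EFTUD2 replicate 2 is brightest, then replicate 1, and replicate 3 is closest to the controls; the brightest row is BASP1, with 37.7 FPKM in replicate 2.

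Genes close to the limits looked much like those within them. At the control limit itself were 4 of the genes, FSTL1, FBN2, RAB27B and ZP3, each with a highest control value of 0.10 FPKM. Just outside were RAB34, at 0.09, 0 and 0.11 FPKM in the controls and 3.25, 7.11 and 0.22 FPKM with EFTUD2, LAMA1, at 0.11, 0.07 and 0.12 FPKM and 1.28, 2.73 and 0.21 FPKM, and SAA1, at 0.05, 0.12 and 0.09 FPKM and 0.57, 1.85 and 2.11 FPKM. SAA1, an acute-phase protein of liver, was highest in replicate 3 and so had another order. Just inside the limit on the EFTUD2 mean were ATL3, PDE1A and IFT27, with means of 1.01, 1.01 and 1.02 FPKM. Just outside were OCIAD2, at 0, 0.04 and 0 FPKM in the controls and 0.92, 1.92 and 0.11 FPKM with EFTUD2, RERG, at 0 in each control and 0.86, 2 and 0.07 FPKM, and GPD2, at 0.01 in each control and 0.94, 1.83 and 0.06 FPKM.

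Further control-silent genes of lower level showed the same order of libraries less uniformly. Of 65 with an EFTUD2 mean of at least 0.5 and under 1 FPKM, 64 were highest in replicate 2 and lowest of the 3 in replicate 3. The count was 148 of 163 from 0.2 to 0.5 FPKM, and 123 of 204 from 0.1 to 0.2 FPKM, where the deposited values have 2 decimals and few steps. What sets the order of the EFTUD2 libraries was not tested.

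In the fit across all genes, limma on log2(FPKM + 1) called 0 of 17224 genes at an adjusted p under 0.05 (0% of the genes tested), and 2118 genes had an unadjusted p under 0.05, 757 of them higher with EFTUD2. No other tool was run, since the values are not counts. Among the 64 genes, 0 passed and 54 had an unadjusted p under 0.05, with adjusted p from 0.385 to 0.421. Their log2 fold changes ran from 0.75 for IFT27 to 3.43 (standard error 0.93) for BASP1, with a median of 1.20, against a median of -0.07 over all genes tested. A log2 fold change of at least 1 was reached by 45 of the 64, beside 1.25% of all genes tested, and each EFTUD2 library was above each control in 59, beside 7.93%. The choice of the genes set these counts, so nothing is read from them. The 1 added in the log makes the fold change of such low genes smaller than their ratio of FPKM.

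Leaving out EFTUD2 replicate 3 changed the calls, though these too rest on values that chose the genes. Without it, limma called 167 genes at an adjusted p under 0.05, 153 of them higher with EFTUD2 (0.891% of 17166 genes tested). Of the 64 genes, 30 were among them. Leaving out replicate 2 instead, 21 genes met the thresholds, 20 of them among the 64, since the mean of replicates 1 and 3 was under 1 FPKM in 44 of the 64.

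Relatives and complex partners of the silent genes were looked up for their own levels. For 30 of the 64 genes, 29 families or complexes were listed from general knowledge after the names were known. They hold 104 further genes of the table, and 70 of these averaged 1 FPKM or more in the controls (67.3%), beside 61.1% of all genes placed on the genome outside the 64. In 24 of the 29 families at least 1 such relative was found, and in 20 a relative reached 10 FPKM. The matching shares for families of other genes were not counted, so nothing is read from the family counts. Among 82 relatives tested, limma called 0 at an adjusted p under 0.05. At an unadjusted p under 0.05, 4 were higher (4.88%) and 8 lower (9.76%), beside 4.4% higher and 7.90% lower of all 17224 genes tested, so nothing particular to the relatives is read from these counts.

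One such case was the ER membrane complex, shown in the dot plot of families. Its 9 other subunits had control means from 10.2 ± 0.53 FPKM for MMGT1 to 71.2 ± 4.84 FPKM for EMC7 (SD, n = 3), while EMC10 was at 0.04 FPKM or less in the controls. EMC7 stood at 67.17, 76.56 and 69.80 FPKM in control cells, against 62.87, 66.10 and 49.74 FPKM with EFTUD2. The IFT-B complex of cilia likewise had 16 other subunits at a control mean of 1.8 to 30.3 FPKM beside IFT27 at 0.07. Of the other subunits of both complexes, 0 passed adjustment in limma, and EMC6, IFT46 and IFT74 were those with an unadjusted p under 0.05, all with a lower mean in the EFTUD2 libraries.

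Relatives of the same family, not always the closest ones, were also present where a gene was silent. GNG5 had a control mean of 139 ± 11.3 FPKM beside GNG11 at 0.03, ZYX 65.4 ± 4.92 FPKM beside TRIP6 at 0, and RPL39 566 ± 29.4 FPKM beside RPL39L at 0 (SD, n = 3). INSIG2 was at 36.8 ± 6.61 FPKM, ATL2 at 29.3 ± 4.11 FPKM, CAVIN1 at 42.6 ± 1.25 FPKM, MAPK6 at 73.9 ± 4.72 FPKM and BMP4 at 53.3 ± 4.78 FPKM, beside silent INSIG1, ATL3, CAVIN3, MAPK4 and BMP2. The relatives of sorcin, PDCD6, PEF1, GCA and CAPNS1, had control means of 17.7 to 136 FPKM. Of these relatives, ZYX and PEF1 were among those with an unadjusted p under 0.05, both lower with EFTUD2, and neither passed adjustment.

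MARCKS and MARCKSL1 are membrane-bound relatives of BASP1, and both had lower means with EFTUD2. MARCKS stood at 54.10, 38.52 and 44.65 FPKM in control cells, against 32.72, 27.26 and 26.91 FPKM with EFTUD2, without overlap. The log2 difference of -0.63 had a standard error of 0.15 and an adjusted p of 0.385 in limma. MARCKSL1 stood at 136.01, 147.51 and 146.83 FPKM, against 114.47, 119.17 and 92.25 FPKM, with an adjusted p of 0.402 from limma. Neither passed the threshold.

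The order of libraries seen in the silent genes also occurred among relatives, some of them with overlapping groups. How many relatives had it was not counted. GNG12, a gamma subunit like GNG11, stood at 0.64, 0.28 and 0.36 FPKM in control cells, against 3.24, 6.74 and 0.88 FPKM with EFTUD2, a log2 difference of 1.48 (standard error 0.47, adjusted p = 0.402 from limma). In the HOXC cluster, HOXC11 stood at 0, 0 and 0.02 FPKM, against 0.54, 1.31 and 0.05 FPKM, next to HOXC10. HOXC9, the neighbor on the other side, stood at 1.22, 1.5 and 1.78 FPKM, against 1.11, 1.48 and 0.64 FPKM. It had the order too, but its groups overlapped. FBN1 and BMP6 also had an unadjusted p under 0.05 and were higher with EFTUD2. The matricellular genes CCN1 and CCN2 had another pattern, highest in EFTUD2 replicate 3, at 87.13 and 308.13 FPKM, against 5.44 to 11.05 and 25.93 to 66.62 FPKM in the controls.

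**Figure D5:**
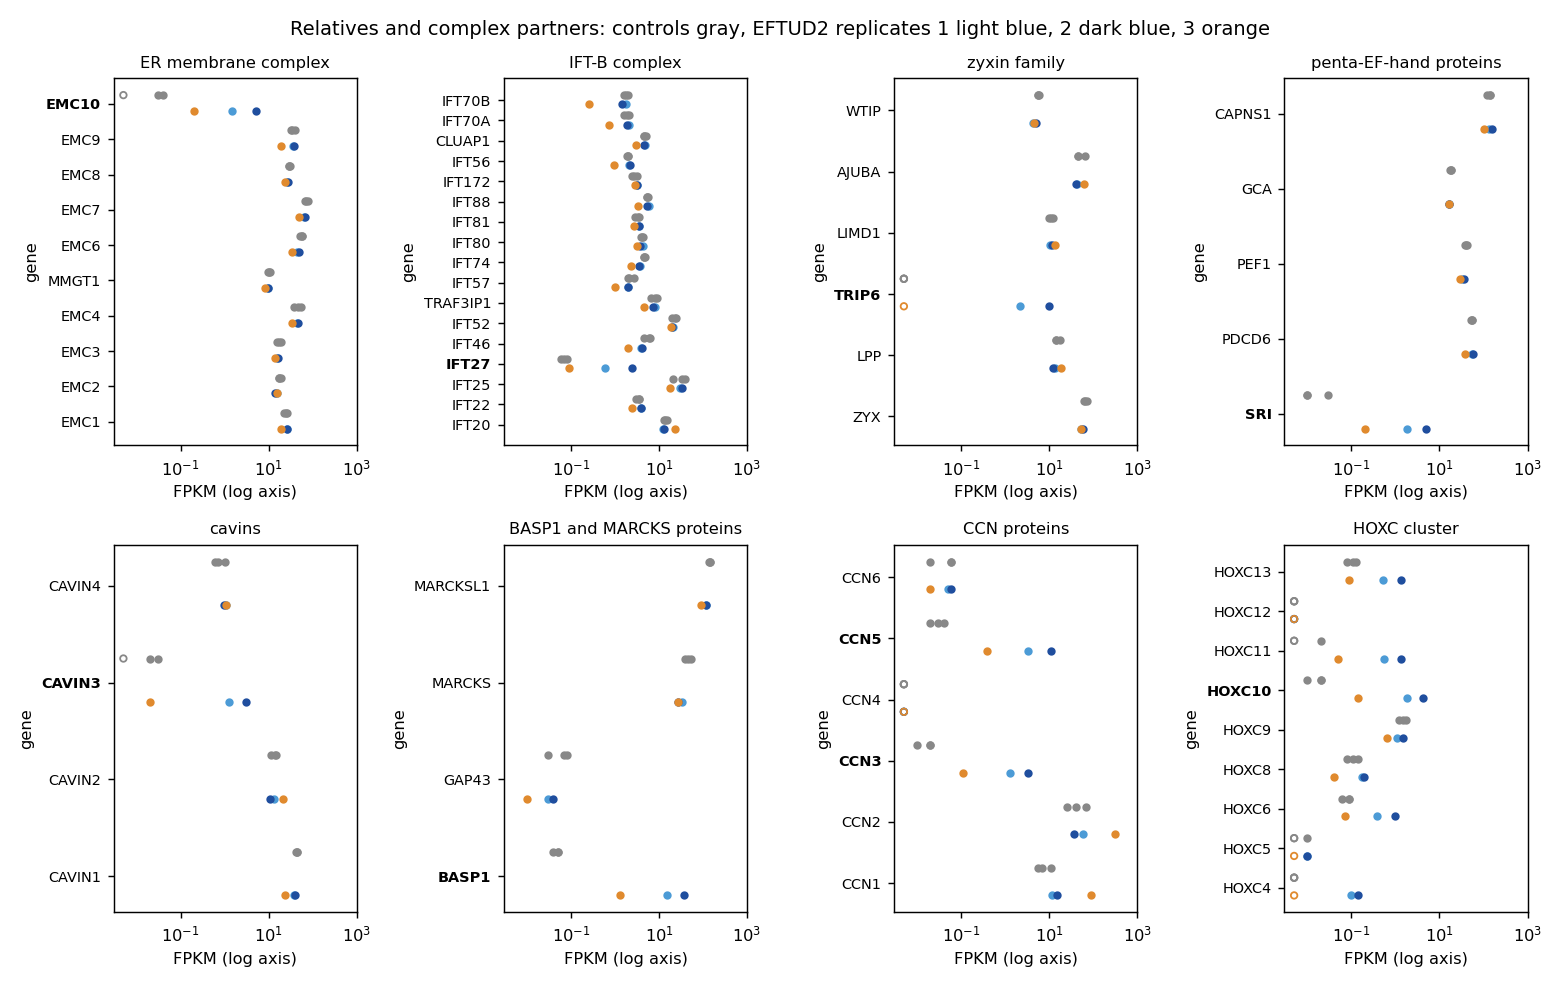
FPKM (log axis) of the genes of 8 families or complexes in the controls (gray) and in EFTUD2 replicates 1 (light blue), 2 (dark blue) and 3 (orange), with the silent genes in bold and open points for genes listed at 0. EMC10 and IFT27 lie far left of their complex partners in the controls, and CCN1 and CCN2 are highest in EFTUD2 replicate 3, at 87.13 and 308.13 FPKM.

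Liver markers were present in all 6 libraries. The summed level of 20 hepatocyte genes was 11776 to 16638 FPKM in the controls and 16226 to 22370 FPKM with EFTUD2, none of the 20 was at 0.1 FPKM or less in every library, and 0 passed adjustment in limma (4 higher and 1 lower at an unadjusted p under 0.05). Of the marker lists for other cell types, 0 genes met the thresholds of the 64 and 0 passed adjustment in limma, with no other tool run. The sum of 10 macrophage genes was 19.2 to 31.9 FPKM in the controls and 27.7 to 36.0 FPKM with EFTUD2, most of it CD68, with TYROBP and FCGR3A listed at 0 in all 6 libraries. CD14 of that list, a receptor for bacterial lipopolysaccharide, stood at 0.86, 0.60 and 1.03 FPKM in control cells, against 1.41, 2.06 and 2.51 FPKM with EFTUD2, without overlap (adjusted p = 0.401 from limma). The sum of 10 fibroblast genes was 0.67 to 1.76 FPKM and 2.36 to 3.09 FPKM, without overlap, with PRRX1 listed at 0 and DCN at 0.04 FPKM or less throughout. PDGFRB, the largest part in each control, stood at 1.43, 0.41 and 1.05 FPKM there, against 1.10, 0.68 and 2.07 FPKM with EFTUD2. Its groups overlapped, while those of FBN1 did not, at 0.26, 0.23 and 0.25 FPKM, against 0.68, 1.35 and 0.53 FPKM. LUM, a matrix proteoglycan of that list, was at 0.01 FPKM or less in control cells, against 0.35, 0.56 and 0.01 FPKM with EFTUD2. At an unadjusted p under 0.05, 1 macrophage gene (CD14) and 1 fibroblast gene (FBN1) were higher and 0 of either list lower.

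The sum of 10 endothelial genes was 17.1 to 20.1 FPKM in the controls and 6.23 to 11.5 FPKM with EFTUD2, without overlap, chiefly through ESAM, at a mean of 5.97 against 15.3 FPKM (adjusted p = 0.268 from limma). The list did not move as one, since CDH5, the cadherin of endothelial junctions, stood at 0.06, 0.08 and 0.07 FPKM in control cells, against 0.19, 0.28 and 0.28 FPKM with EFTUD2. VWF, the von Willebrand factor, stood at 0.33, 0.15 and 0.27 FPKM, against 0.60, 0.54 and 0.46 FPKM. Both were higher without overlap at an unadjusted p under 0.05 (adjusted p = 0.402 from limma for each), and ESAM was the 1 gene lower at that level. The sum of 10 squamous or basal genes was 98.3 to 123 FPKM and 103 to 132 FPKM, with KRT5 listed at 0 and TP63 at 0.01 FPKM or less throughout. TRIM29 of that list followed the order of the 64 genes, at 0.65, 1.01 and 1.43 FPKM in control cells, against 5.34, 11.71 and 1.32 FPKM with EFTUD2, so that replicate 3 lay within the controls. SERPINB5 followed the same order at 0.25, 0.70 and 0.02 FPKM with EFTUD2. KRT14, a keratin of basal cells, was at 0.01 FPKM or less in control cells, against 0.29, 0.83 and 0.09 FPKM, and with TRIM29 it made the 2 genes of that list that were higher at an unadjusted p under 0.05, beside 0 lower. The sum of 10 neural genes was 149 to 196 FPKM and 106 to 180 FPKM, nearly all of it TUBB3, with 0 genes past an unadjusted p under 0.05. That of 9 lymphocyte genes was 6.60 to 8.56 FPKM and 4.32 to 6.18 FPKM, without overlap, with CD3E and CD2 listed at 0. LCK, a kinase of T cells, was the 1 gene of that list past an unadjusted p under 0.05, at 2.69, 3.11 and 3.47 FPKM in control cells, against 1.33, 0.63 and 0.86 FPKM with EFTUD2 (adjusted p = 0.220 from limma). The part of any of these markers in the levels of the 64 genes was not tested.

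Of 18 genes that write, read or remove DNA and histone methylation or acetylation, limma tested 18 and called 0 at an adjusted p under 0.05, with 0 higher and 1 lower, TET3, at an unadjusted p under 0.05. Their summed level was 277, 285 and 266 FPKM in the controls and 266, 271 and 185 FPKM in EFTUD2 replicates 1 to 3, with a median log2 difference of -0.18. The lower sum in replicate 3 includes DNMT1, the enzyme that copies DNA methylation, with 26.21, 28.68 and 16.15 FPKM in the EFTUD2 libraries. UHRF1, its partner, was at 23.68, 26.02 and 10.61 FPKM. The list did not move as one, since DNMT3B, EZH1, KDM6A, KDM6B and TET1 were highest in replicate 3 among the EFTUD2 libraries. DNMT3B was at 7.28, 7.33 and 8.72 FPKM and KDM6A at 5.95, 5.62 and 8.66 FPKM. Lower levels in replicate 3 were not confined to this list, since the median ratio to replicate 2 was 0.833 over 11071 genes. Replicate 3 had the lowest levels of the 64 genes among the EFTUD2 libraries as well, and the part of the 18 listed genes in that was not tested.

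In the genome the 64 genes were spread over 20 chromosomes, with at most 8 on one, chromosome 1. Of the 128 nearest neighbors on either side, 61 averaged 1 FPKM or more in the controls (47.7%), beside 61.1% of all placed genes outside the 64. In 46 of the 64, at least 1 direct neighbor was at that level, but the matching share of other genes was not counted. LY6K, a neighbor of PSCA, had the order of the 64 genes. It stood at 0.09, 0.05 and 0.14 FPKM in control cells, against 4.83, 11.55 and 0.3 FPKM with EFTUD2. At lower levels, MAP3K21 and SLC35F3 on either side of KCNK1 had this order too. How many neighbors had it was not counted. Within 1 Mb of each other lay 3 pairs of the 64 genes: SRI and STEAP4, SMIM10 and RTL8A, and MYPN and SRGN.

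SRI and STEAP4 are adjacent on chromosome 7 of GRCh38.p14, both on the minus strand, with 43916 bases and no gene of the table between them. SRI (chr7:88205115-88226976) was at 1.82, 4.97 and 0.20 FPKM in the EFTUD2 libraries, and STEAP4 (chr7:88270892-88306894), at 0.01 FPKM in each control, was at 1.80, 3.81 and 0.23 FPKM. ADAM22, on the other side of SRI, stood at 1.59, 1.45 and 1.56 FPKM in control cells, against 1.6, 1.26 and 1.09 FPKM with EFTUD2, so the groups overlapped. The 100 bases before each listed start are printed because the starts of SRI differ in CpG content, with CG in capitals, from RefSeq on the minus strand at chr7:88226977-88227076, chr7:88220039-88220138 and chr7:88306895-88306994.
SRI first listed start: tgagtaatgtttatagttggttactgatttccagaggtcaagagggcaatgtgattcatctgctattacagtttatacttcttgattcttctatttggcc
SRI second listed start: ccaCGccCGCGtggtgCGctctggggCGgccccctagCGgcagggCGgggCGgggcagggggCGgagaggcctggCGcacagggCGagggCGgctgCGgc
STEAP4: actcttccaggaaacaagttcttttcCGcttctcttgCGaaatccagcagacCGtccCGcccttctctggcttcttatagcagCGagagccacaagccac
They hold 0, 13 and 5 CG, and the whole windows 0, 37 and 18. SRI therefore counted as CpG-poor at its first listed start and not at its second, and with any listed start allowed, 37 of the 47 promoters (78.7%) were CpG-rich, beside 41.2% of the other control-silent genes and 87.5% of genes whose control mean was 1 FPKM or more. Which start was used in these cells cannot be read from gene levels.

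SMIM10 and RTL8A lie 58459 bases apart on chromosome X, with RTL8B and RTL8C between them. RTL8B stood at 0, 0.03 and 0 FPKM in control cells, against 0.51, 1.09 and 0.05 FPKM with EFTUD2, the order of the 64 genes at a lower level. RTL8C stood at 14.14, 14.14 and 18.19 FPKM, against 16.52, 22.41 and 11.28 FPKM. It had the order too, but its groups overlapped. MYPN and SRGN lie 875586 bases apart on chromosome 10 with 12 genes of the table between them.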

How the data were processed

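RNA-Seq of 6 Hep G2 libraries, 3 with the empty vector and 3 with stable EFTUD2 overexpression, was used, grouped by their labels. The authors extracted RNA with TRIzol, selected poly-A mRNA, sequenced it on BGISEQ-500 and deposited FPKM per gene and library, rounded to 2 decimals. The submitters' processing notes name HISAT2, Bowtie2, RSEM, DESeq2 and hg38, without roles. Read depth is unknown, so no counting interval is given.

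The 64 genes were counted by the thresholds of 0.1 and 1 FPKM. For the background, log2(FPKM + 1) was compared for 17224 genes (mean over all libraries 0.1 FPKM or more) with limma 3.58.1 (lmFit, eBayes with trend, Benjamini-Hochberg, two-sided) in R 4.3.3, after tests on simulated data. An exact permutation test of 3 against 3 cannot give a p below 0.1. Of 18762 Entrez numbers, 18449 matched the RefSeq gene table. Further steps used Python 3.11.15, pandas 2.3.3 and matplotlib 3.10.9.

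The members and lists were chosen with earlier results of these data known, and the classes and families after the member names were known. Of the 64 genes, 63 are named, since results for 1 are not reported here, with all library values for the 25 with the highest mean, the 5 highest and 5 lowest ratios of EFTUD2 replicate 3 to 2, the first 2 of each class, and the genes at the thresholds. Relatives, neighbors and genes of the lists that are given with values were picked after their values were seen. Alternatives were another pseudocount, filter, scaling or threshold, the replicate number as a block, and each library left out in turn.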

Additional observations from a re-analysis of the deposited data

Results flagged for a closer look

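Rows under identifiers of the sequencing provider were not used to choose the 64 genes, since the table gives them no gene name. Of 4762 such rows, 14 met both thresholds, with no control value above 0.08 FPKM, which is why they are listed here. Their means over the EFTUD2 libraries ran from 1.03 to 6.12 FPKM. In 12 of the 14 the order of the libraries was that of the 64 genes, with a median ratio to EFTUD2 replicate 2 of 0.428 for replicate 1 and 0.0239 for replicate 3. The other 2 were highest in replicate 3, at 6.89 and 7 FPKM, and lower in replicate 2, at 0 and 0.36 FPKM.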

How the results depend on the processing

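The number of genes chosen depended on the limits: 125 genes met an EFTUD2 mean of at least 0.5 FPKM and 25 a mean of at least 2 FPKM, while control limits of 0.05 and 0.2 FPKM gave 47 and 88. Leaving out 1 library at a time gave 21 to 89 genes, lowest without EFTUD2 replicate 2. The count at an adjusted p under 0.05 in limma was 0 with another pseudocount, filter or scaling, and ranged from 0 to 167 over all genes and from 0 to 30 over the 64 when 1 library was left out, above 0 only without EFTUD2 replicate 3. With the replicate number as a block it was 0 for both, and same-numbered libraries did not deviate together (correlations of -0.30, 0.35 and -0.09), so the numbers were not taken as pairs. The median ratio of EFTUD2 replicate 3 to replicate 2 stayed between 0.0325 and 0.0439 over 4 alternatives. That of replicate 1 to 2 stayed between 0.366 and 0.397 over 3. The alternatives with any listed promoter start, with no name left out (76 genes) and with genes of at least 0.1 FPKM in replicate 3 were chosen after seeing the data. Values of 0.01 to 0.1 FPKM rest on a few rounding steps and unknown read numbers, so ratios to the controls are imprecise.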
